A study of Mus musculus with 59 samples.

Results

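Wild-type (WT) neurons cultured with glia carrying the SOD1_G93A mutation were compared with WT neurons cultured with WT glia. The comparison rests on 11 of the 59 RNA-seq libraries of a mouse study. In the culture experiment neurons and glia shared a sandwich, and RNA was read from each side separately. The libraries used here hold the RNA of the neuron side. They comprise 6 libraries of WT neurons with mutant glia (2 each at days 3, 7 and 14) and 5 of WT neurons with WT glia (1 at day 3, and 2 each at days 7 and 14). Every neuron in both groups is WT by its label, so the groups differ by label in the genotype of the glia. Total RNA was read, after Trizol and column extraction. The labels give neither the source of the neurons and glia nor the cells that express the mutant allele. They do not say whether replicates came from separate cultures. P-values therefore measure the spread between the libraries of the fit, which may be technical. That fit also holds 9 libraries of SOD1_G93A mutant neurons, which share in the estimate of the spread. The labels name 2 library chemistries without saying which was used for which library. Members were chosen by label alone, and the groups were set against each other by day and replicate number, which gives 5 pairs. The library of WT neurons with mutant glia at day 3, replicate 2, has no partner.

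SOD1 is an enzyme that removes superoxide, and dominant mutations in it cause familial amyotrophic lateral sclerosis, in which motor neurons die. Glia carrying such mutations can harm motor neurons in culture even when the neurons are WT. Astrocytes support and buffer neurons, microglia are the resident macrophages of the nervous system, and both answer injury with cytokines, chemokines and interferon-stimulated genes. Motor neurons themselves are marked by the acetylcholine-synthesis and acetylcholine-transport genes and by the transcription factors Mnx1, Isl1 and Lhx3.

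Depth was 6.37 to 29.3 M reads on genes (median 14.1) in WT neurons with mutant glia, and 7.49 to 16.8 M (median 10.6) in WT neurons with WT glia. Levels are the deposited values per length and depth (RPKM by their behaviour), rescaled by median-of-ratios factors over the 20 neuron libraries, and are called rescaled values below. The 4 neuron libraries labelled day 3, replicate 1, had factors of 1.45 to 1.68, against 0.821 to 0.971 in the other 16. The unpaired day 3 library stood apart from the paired one of its own group. Its level of Dppa5a, a pluripotency marker, was 0.995 against 91.8 in replicate 1, and 88.9 in the day 3 library with WT glia. Changes were fitted as log2(rescaled value + 1), a scale that understates the change of low genes, in 1 linear model that also holds a term for replicate 2 of each day.

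No pan-neuronal or motor neuron marker passed the test in WT neurons with mutant glia against those with WT glia, and each marker's 95% interval lay within a log2 change of 1 either way on the fitted scale. The summed level of 14 pan-neuronal markers was 6390 and 5800 at day 3, 2380 and 3260 at day 7, and 746 and 829 at day 14 with mutant glia (replicates 1 and 2). With WT glia it was 5440 at day 3, 3370 and 3270 at day 7, and 698 and 1080 at day 14. Sums were lower at each later day in both groups. With mutant glia both libraries lay above the 1 with WT glia at day 3. At day 7 both lay below the 2 with WT glia, at the nearest by 3260 against 3270, and at day 14 the groups overlapped. Of all single genes, 13.8% lay below in this way at day 7. Marker sums here and below use 1 scaling of all 43 culture libraries, so that neuron and glial libraries can be set side by side. The 12 motor neuron markers summed to 1650 and 1800, 579 and 742, and 147 and 209 with mutant glia at days 3, 7 and 14. With WT glia they summed to 1390, then 648 and 775, then 125 and 287. The day 14 values lie far below those of day 3 in both groups. Fewer motor neurons, less RNA per motor neuron and a larger share of RNA from other cells cannot be told apart in such bulk samples. In replicate 1 the fibroblast and meningeal markers summed to 519 at day 3 and 2590 at day 14 with mutant glia. With WT glia these sums were 592 and 2420.

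Slc18a3, which loads acetylcholine into vesicles, had rescaled values of 171 and 174 at day 3, 67.8 and 85.0 at day 7, and 21.5 and 23.9 at day 14 with mutant glia. Beside WT glia the values were 154 at day 3, 86.8 and 91.3 at day 7, and 15.7 and 25.5 at day 14. Again the libraries with mutant glia lay above the 1 with WT glia at day 3, and within the range with WT glia at day 14. At day 7 they lay below both with WT glia, as for 13.8% of all genes. Mnx1, a transcription factor of motor neuron identity, had 162 and 198, 43.4 and 60.6, and 5.42 and 8.17 with mutant glia at the 3 days. With WT glia Mnx1 had 155, then 41.5 and 59.3, then 3.39 and 11.5, and the groups overlapped at days 7 and 14. Among motor neuron markers the smallest p belonged to Lhx4, a factor of early motor neuron specification, with a mean log2 difference of 0.19 (95% interval -0.02 to 0.40). Among pan-neuronal markers it belonged to Elavl4, an RNA-binding protein of neurons, at -0.24 (-0.55 to 0.08). Neither passed the test.

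Across all genes, no difference averaged over the 3 days passed an adjusted p of 0.05 (0 of 14870 tested, percent called 0, limma with Benjamini-Hochberg adjustment). The smallest adjusted p was 0.962. At an unadjusted p under 0.05, 477 genes (3.21%) differed, 269 of them lower (1.81%) and 208 higher (1.4%) with mutant glia. Without the replicate term 170 genes did, so p-values and intervals depend on that term. The 95% interval lay within a log2 change of 1 either way for 14650 genes (98.5%), and within 0.5 for 11922 (80.2%). The median distance from an estimate to its interval's bound was 0.268. The median over all genes was 0.00, and the medians of the 14 pan-neuronal and 12 motor neuron markers were -0.05 and 0.03. All 12 motor neuron and all 14 pan-neuronal markers passed the filter on low values and had intervals within 1 either way. With 5 pairs, an exact permutation test over the signs of a single gene's pair differences cannot go below 0.0625.

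**Figure D1:**
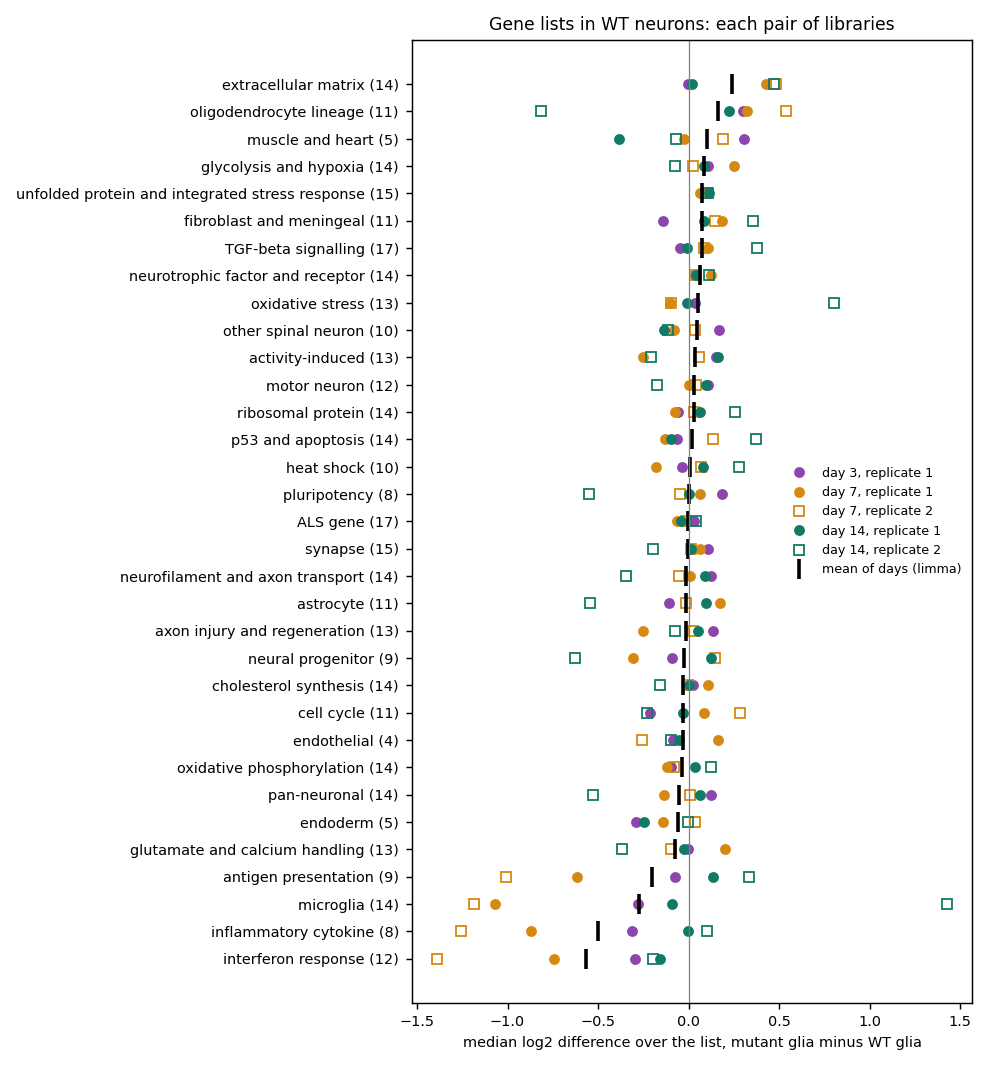
Median log2 difference (mutant glia minus WT glia, log2 of rescaled value + 1) of each gene list in each of the 5 day-and-number pairs. Each point is 1 pair; the motor neuron list runs from -0.18 to 0.11, the pan-neuronal list from -0.53 to 0.12, the microglia list runs from -1.19 at day 7 to 1.43 at day 14, and the interferon list is below 0 in all 5 pairs.

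At day 7 alone, 7 genes passed the adjusted threshold (0.0471% of genes tested), and all 7 were lower in WT neurons with mutant glia. At an unadjusted p under 0.05, 842 genes differed at day 7 (5.66%), 673 of them lower. The 4 that the rule for named genes covers are Acod1, which makes the macrophage metabolite itaconate, Apoc2, an apolipoprotein and cofactor of lipoprotein lipase, Neurl3, a ubiquitin ligase, and Clec4a1, a lectin receptor of myeloid cells. The promoter of Acod1 is shown because it is the gene with the smallest p, with the letters GAGGAA, a core recognised by the myeloid factor PU.1 and other ETS factors, in capitals. It covers chr14:103046762-103047061 (plus strand, GRCm38.p6, RefSeq), 250 bases before to 50 after the annotated start.
Acod1: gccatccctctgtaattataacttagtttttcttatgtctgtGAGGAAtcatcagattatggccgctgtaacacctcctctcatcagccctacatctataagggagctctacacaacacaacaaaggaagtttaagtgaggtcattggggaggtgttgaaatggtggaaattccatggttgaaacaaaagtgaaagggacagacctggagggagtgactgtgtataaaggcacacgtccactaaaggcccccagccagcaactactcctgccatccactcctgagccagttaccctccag
Read on both strands, GAGGAA occurs in 9289 of 32851 RefSeq promoters of this length (28.3%), and in 8 of the 11 microglia markers with a promoter. In the interferon and cytokine lists used below it occurs in 3 of 9 and 2 of 8 genes with a promoter. The base share counts single promoters, while a listed gene counts if any of its promoters matches, so the shares are not like for like. A match is a description of the sequence, not a site of binding.

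Acod1 had rescaled values of 0.182 and 0.316 at day 3, 1.64 and 0.815 at day 7, and 0.417 and 0.0317 at day 14 with mutant glia. With WT glia it had 0.225 at day 3, 5.36 and 6.01 at day 7, and 0.412 and 0.0320 at day 14. Only the 2 day 7 libraries with WT glia stood above 2, and at day 7 the groups did not overlap, as for 27.9% of all genes. Acod1 fell by 1.61 on the log2 scale at day 7 (95% interval -2.02 to -1.19, limma adjusted p = 0.0404). The day 7 libraries held 45 and 87 reads of it with mutant glia, against 270 and 274 with WT glia.

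Apoc2 had 0.903 and 0.235, 0.820 and 2.30, and 1.13 and 0.393 with mutant glia at the 3 days. With WT glia Apoc2 had 0.838, then 7.46 and 10.7, then 0.213 and 0.199. Its day 7 log2 change was -2.02 (-2.56 to -1.48). At day 14 both libraries with mutant glia lay above both with WT glia, at low values, and 29.1% of all genes did not overlap between the groups at that day. Neurl3 had 0.551 and 1.42 at day 7 with mutant glia, against 2.74 and 8.86 with WT glia, a change of -1.65 (-2.12 to -1.18). Clec4a1 had 3.06 and 2.51 at day 7 with mutant glia, against 9.48 and 13.5 with WT glia, a change of -1.71 (-2.20 to -1.22). Day 7 groups did not overlap for either gene, as for 27.9% of all genes, and each had a limma adjusted p of 0.0404. The remaining 3, named after their values were seen, are Apoc4, a neighbour of Apoc2 in the apolipoprotein family (-1.55), and the unnamed transcripts uc008grn.1 (-1.60) and uc009tzo.1 (-2.77).

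The 4 named genes were also lower in the mutant glia of the same day 7 sandwiches than in the WT glia. Their means there, on the scale of all culture libraries, were 1.12 against 2.31 for Acod1, 6.97 against 27.0 for Apoc2, 1.99 against 6.45 for Neurl3, and 5.76 against 9.09 for Clec4a1 (n = 2 each, not tested). None of the 7 passed at days 3 or 14. The difference of the effects between days 14 and 7 did not pass for Apoc2 (log2 2.54, limma adjusted p = 0.305), Acod1 (1.61, 0.539) or Neurl3 (1.77, 0.539). The summed level of 4 Y-linked genes was 72.9 and 65.3 in the mutant glia of day 7, against 0.164 and 0.0815 in the 2 WT glial libraries of that day, and its part in the result was not tested. The day 7 calls moved with the fit: 0 genes were called with no replicate term, without replicate 2 with WT glia at day 7, or without any 1 of 5 libraries with mutant glia (all but replicate 2 of day 7). Without that last library 91 were called, and without either day 14 library with WT glia 17 were. With only the 11 WT neuron libraries in the fit, 61 were called, all lower, and without the day 14 replicate 2 pair 157 were, 153 of them lower.

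Microglial transcripts were present in every neuron library, and their summed level overlapped between the groups at days 7 and 14. The 14 microglia markers summed to 507 and 267 at day 3, 552 and 1580 at day 7, and 970 and 493 at day 14 with mutant glia. With WT glia they summed to 635 at day 3, 1500 and 3390 at day 7, and 956 and 153 at day 14. In percent of the mean of the partner glia of the same day, these sums were 14.6 and 7.71, 20.1 and 57.4, and 54.0 and 27.5 with mutant glia. With WT glia they were 17.1, then 40.3 and 91.4, then 45.7 and 7.32. At day 3 both libraries with mutant glia lay below the 1 with WT glia. No microglia marker was at 0 in any of the 11 libraries.

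**Figure D2:**
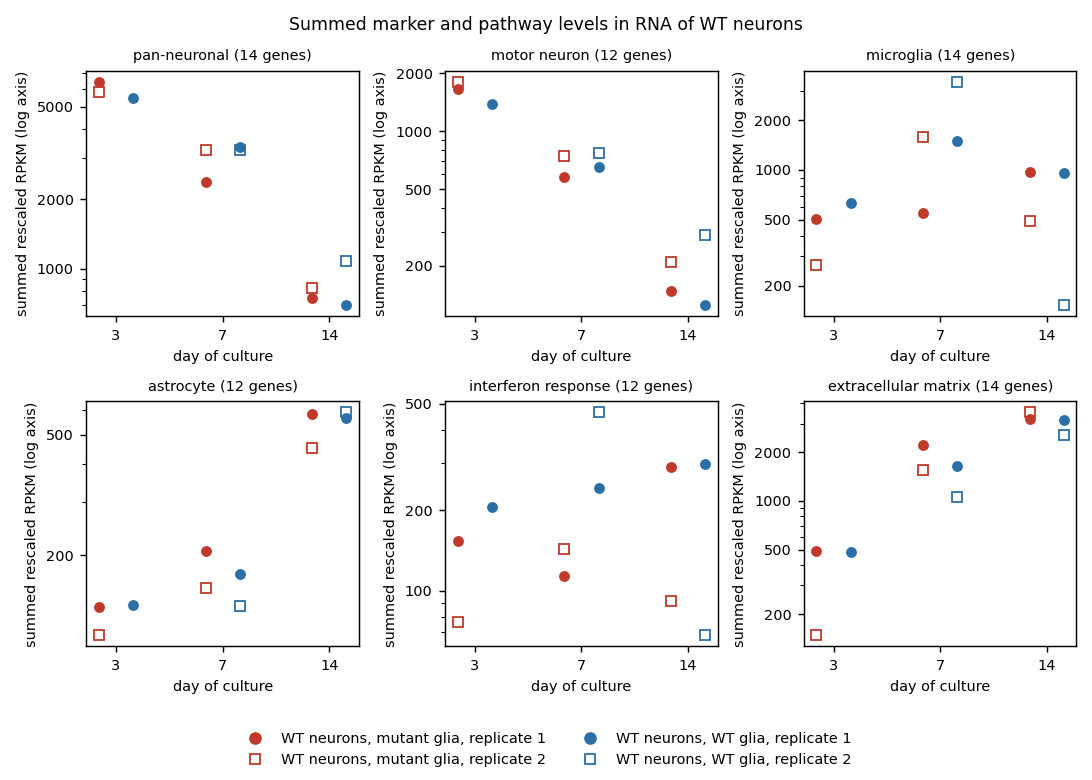
Summed level of marker lists in each neuron library (rescaled values, log axis), by day, with mutant glia left of WT glia. The pan-neuronal sum runs from 746 to 6390 with mutant glia and from 698 to 5440 with WT glia, and the microglia sum from 267 to 1580 with mutant glia and from 153 to 3390 with WT glia.

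C1qa, a complement component made by microglia, had rescaled values of 118 and 43.3, 73.6 and 261, and 173 and 51.1 with mutant glia at days 3, 7 and 14. Its values with WT glia were 139, then 295 and 550, then 156 and 16.9. The groups overlapped over the days, and at day 7 both libraries with mutant glia lay below both with WT glia, as for 13.8% of all genes. At day 7 all 14 markers had lower estimates with mutant glia (median -1.13), 5 of them at an unadjusted p under 0.05, against 4.53% of all genes. At day 14, 12 of the 14 had higher estimates (median 0.75), none at that p, which 1.91% of all genes reached. Over the days the median was -0.28, with 13 of 14 lower and 3 at an unadjusted p under 0.05, against 1.81% of all genes. Pair medians were -0.28 at day 3, -1.07 and -1.19 at day 7, and -0.09 and 1.43 at day 14. The median over the days was 0.17 without replicate 1 of WT neurons with WT glia at day 14, and -0.66 without replicate 2.

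Of the 24 genes named for the mean over the days, none passed the adjusted threshold, and 23 had lower estimates with mutant glia. Cx3cr1, the microglial receptor for the neuronal chemokine fractalkine, had the smallest p. It had 3.49 and 4.23, 11.2 and 19.9, and 10.5 and 0.0880 with mutant glia at the 3 days. Beside WT glia the values were 6.40, then 24 and 46.8, then 11.4 and 0.266. Within each of the 5 pairs the library with mutant glia was lower, which 2.82% of all genes also showed. The mean log2 difference was -0.69 (-0.95 to -0.44, limma adjusted p = 0.962). Without the replicate term it was -0.63, and its unadjusted limma p was 0.416, against 0.000125 with the term.

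Fcrls, an Fc receptor-like protein of microglia, was lower in all 5 pairs with a mean difference of -0.58. Gpr84, a myeloid receptor for fatty acids, was also lower in all 5 pairs (-0.48). Pilra (-0.65), an inhibitory myeloid receptor, Slamf9 (-0.73) and Lst1 (-0.99) had larger mean differences, with 5, 4 and 4 pairs lower. For Lst1 the day 7 values were 3.76 and 5.29 with mutant glia, against 36.2 and 29.0 with WT glia, while the day 14 values overlapped. AB124611 was at -0.60 with 3 pairs lower, and Pla2g7, a lipoprotein phospholipase, at -0.39 with 3. AA467197 had the largest of these differences, at -1.30, with day 7 values of 0.254 and 0.547 with mutant glia and 3.94 and 11.9 with WT glia. Gng11 (-0.53), a G protein gamma subunit, and Fam229b (-0.52) were lower in all 5 pairs. Arl4d, a small GTPase, was the 1 gene of the 24 with a higher estimate. It had 4.43 and 2.30, 2.47 and 2.64, and 6.15 and 7.42 with mutant glia, against 2.36, then 2.38 and 1.5, then 3.98 and 3.23 with WT glia, and was higher in all 5 pairs (0.62, limma adjusted p = 0.962).

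**Figure D3:**
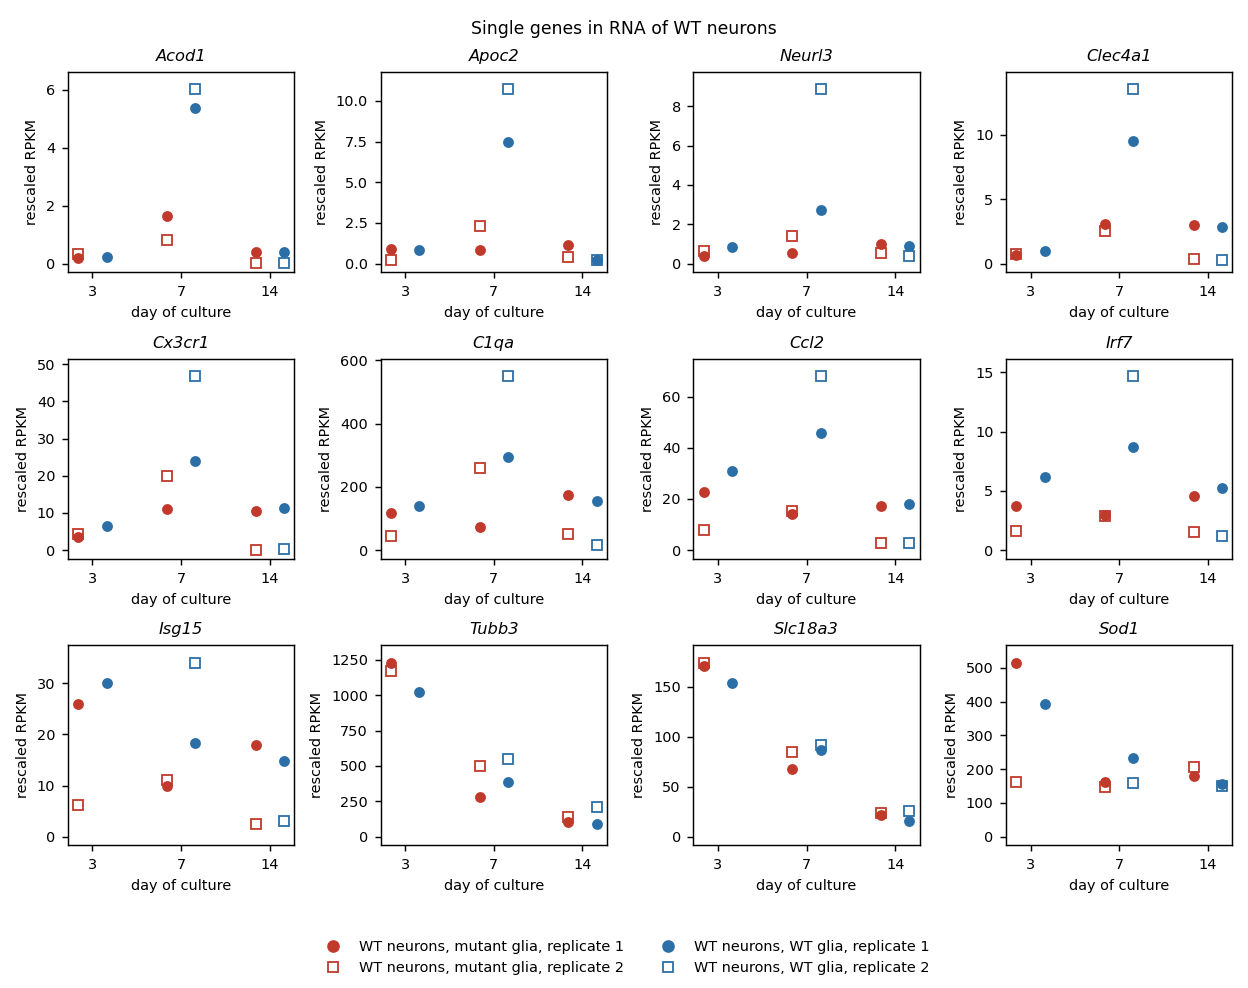
Rescaled values of single genes in every WT neuron library (linear axes from 0), by day, with mutant glia left of WT glia; each point is 1 library. At day 7 the points for Acod1, Apoc2 and Ccl2 with mutant glia lie below those with WT glia, as for 13.8% of all genes. The motor neuron gene Slc18a3 declines over the days in both groups.

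The list of interferon-stimulated genes had a median below 0 with mutant glia in each of the 5 pairs. All 12 passed the filter on low values, and all 12 had lower estimates with mutant glia over the days (median -0.57). Of these, 9 reached an unadjusted p under 0.05, against 1.81% of all genes, and none passed the adjusted threshold. Such genes are known to be induced together, so the count does not stand for independent observations. Without the replicate term the list median was -0.66. Pair medians were -0.30 at day 3, -0.74 and -1.39 at day 7, and -0.16 and -0.20 at day 14, with the largest sizes at day 7. At day 7 the fitted median was -1.02, with 10 of 12 at an unadjusted p under 0.05, against 4.53%. The list summed to 154 and 76.4, 114 and 143, and 291 and 91.3 with mutant glia, and to 205, then 242 and 464, then 297 and 68.2 with WT glia. The day 7 sums did not overlap, and the day 14 sums did. Microglial markers were lower too at day 7, and their part in the result was not tested. In the partner glia of day 7 the interferon list summed to 389 and 190 in mutant glia, against 575 and 417 in WT glia. Its glial sums overlapped between the genotypes at days 3 and 14. The part of RNA from the glial side was not tested either. With the microglia sum as a covariate the interferon median was -0.48, and without the day 14 replicate 2 pair it was -0.56. Both fits were added after seeing the data. A marker sum cannot separate microglial from neuronal expression of these genes, so the covariate fit is a description. Without the unpaired day 3 library, which differed from the paired one of its group, the interferon median was -0.478 and the microglia median -0.304.

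Promoters of 3 members of this list are shown because they carry the motif that interferon-activated factors recognise. The letters searched were GAAA, any 2 bases, then GAAA, on both strands, and they are in capitals where they match. The sequences are RefSeq promoters on GRCm38.p6, written in the direction of the gene. They cover chr4:156200769-156201068 (minus strand) for Isg15, chr19:34640639-34640938 (plus strand) for Ifit1 and chr12:26456403-26456702 (minus strand) for Rsad2.
Isg15: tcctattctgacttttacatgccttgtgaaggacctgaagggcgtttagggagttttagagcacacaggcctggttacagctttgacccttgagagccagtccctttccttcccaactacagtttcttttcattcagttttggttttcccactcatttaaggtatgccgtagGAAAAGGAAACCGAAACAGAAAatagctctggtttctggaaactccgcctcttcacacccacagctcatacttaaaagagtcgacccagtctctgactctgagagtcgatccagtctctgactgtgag
Ifit1: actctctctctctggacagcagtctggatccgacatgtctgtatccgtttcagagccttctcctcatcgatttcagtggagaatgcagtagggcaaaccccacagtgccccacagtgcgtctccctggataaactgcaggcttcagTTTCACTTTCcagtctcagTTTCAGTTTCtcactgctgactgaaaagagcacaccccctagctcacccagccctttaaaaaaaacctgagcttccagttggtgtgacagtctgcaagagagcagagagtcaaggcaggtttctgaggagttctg
Rsad2: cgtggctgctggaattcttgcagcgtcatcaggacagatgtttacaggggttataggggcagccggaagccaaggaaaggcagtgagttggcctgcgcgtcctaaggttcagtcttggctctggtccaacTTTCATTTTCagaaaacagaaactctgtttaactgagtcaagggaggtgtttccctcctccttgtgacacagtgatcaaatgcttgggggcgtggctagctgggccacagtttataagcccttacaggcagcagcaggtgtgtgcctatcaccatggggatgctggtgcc
Isg15 holds 3 overlapping matches, Ifit1 2 and Rsad2 1. The motif is in 1131 of 32851 promoters (3.44%) and in 5 of the 9 listed interferon genes with a promoter in the table. It is also in 2 of 11 microglia markers and 1 of 8 cytokine genes with a promoter. Here too a listed gene counts if any of its promoters matches, while the base share counts single promoters.

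Isg15, a ubiquitin-like protein induced by interferon, had rescaled values of 25.9 and 6.18, 10 and 11, and 18.0 and 2.50 with mutant glia at days 3, 7 and 14. With WT glia it had 30.1, then 18.3 and 34.0, then 14.7 and 3.01. It was lower in 4 of 5 pairs, with a mean log2 difference of -0.57 (-1.15 to 0.01). Ifit1, which binds viral RNA, had 6.71 and 3.19, 5.87 and 7.51, and 4.71 and 1.18 with mutant glia, against 9.36, then 7.29 and 16.1, then 7.21 and 1.82 with WT glia. Rsad2, an antiviral radical enzyme, had 1.38 and 2.96 at day 7 with mutant glia, against 3.02 and 10.2 with WT glia. Ifit1 (-0.60) and Rsad2 (-0.61) were lower in all 5 pairs, and the 2 groups overlapped when days were pooled.

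Irf7, the transcription factor that amplifies the interferon response, had the smallest p of the list. It had 3.76 and 1.66, 2.94 and 2.87, and 4.57 and 1.52 with mutant glia, against 6.17, then 8.74 and 14.7, then 5.29 and 1.18 with WT glia. Its mean difference was -0.76 (-1.18 to -0.33), and its day 7 difference -1.67 (-2.32 to -1.01, limma adjusted p = 0.158). Ifi27l2a, an interferon-induced membrane protein, had 10.2 and 31.5 at day 7 with mutant glia, against 28.3 and 122 with WT glia, and a mean difference of -1.02. Eif2ak2, the kinase that halts translation on double-stranded RNA, was lower in all 5 pairs by a smaller step (-0.40). Nmi (-0.38) and Samd9l (-0.60) were lower in all 5 pairs as well, and Zbp1 (-0.64), a sensor of left-handed nucleic acid, in 4.

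The cytokine and class I antigen presentation lists had their lowest medians at day 7. Of 11 cytokines and chemokines listed, 8 passed the filter. Their median was -0.50 over the days, with 3 lower at an unadjusted p under 0.05 against 1.81% of all genes, and -1.11 at day 7, with 5 lower at that p against 4.53%. Ccl2, a chemokine that draws monocytes, had 22.7 and 7.79, 14.2 and 15.2, and 17.2 and 2.64 with mutant glia, against 30.8, then 45.9 and 68.0, then 18.2 and 2.67 with WT glia. It was lower in all 5 pairs, by little at day 14, and its mean difference was -0.83 (-1.29 to -0.36, limma adjusted p = 0.962). Ccl7, its neighbour in function, was lower in all 5 pairs (-1.05), and Ppbp, a platelet and myeloid chemokine, in 3 (-1.03). In the partner glia of day 7 the cytokine list summed to 91.6 and 40.7 in mutant glia, against 143 and 103 in WT glia. The glial sums overlapped at day 14, and their part in the result was not tested.

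All 9 antigen presentation genes had lower estimates at day 7 (median -0.90), 7 of them at an unadjusted p under 0.05, against 4.53% of all genes. At day 14, 8 of the 9 were higher (median 0.27). B2m, the light chain of class I molecules, had 131 and 174 at day 7 with mutant glia, against 321 in both libraries with WT glia, and 172 and 128 at day 14 against 190 and 116. Its mean difference was -0.54 (-0.96 to -0.11). In the partner glia of day 7 the antigen presentation list summed to 855 and 502 in mutant glia, against 1270 and 836 in WT glia. These glial sums overlapped, and their part in the result was not tested.

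Extracellular matrix genes leaned the other way. Of 14, 13 had higher estimates with mutant glia over the days (median 0.24), 1 of them at an unadjusted p under 0.05, against 1.4% of all genes. At day 7 the median was 0.44 and 4 were at that p, against 1.14%. Fn1, Lamc1, Lamb1 and Sparc, which encode fibronectin, 2 laminin chains and a collagen-binding protein, were higher in all 5 pairs, as were 3.8% of all genes. Lamb1 had 32.0 and 18.1 at day 7 and 23.9 and 25.6 at day 14 with mutant glia, against 19.3 and 12.5, and 23.3 and 13.4, with WT glia. Its mean difference was 0.38 (0.04 to 0.71), and none of the 14 passed the adjusted threshold. The 11 fibroblast and meningeal markers tested had a median of 0.07. Without the replicate term the matrix list median was -0.03 and Lamb1 was -0.10.

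Oligodendrocyte lineage markers had higher estimates at day 7 as well, all 11 of them (median 0.45), with 3 at an unadjusted p under 0.05, against 1.14% of all genes. At day 14 the list median was -0.29 with 10 of 11 lower, and over the days it was 0.16. The day 14 pairs opposed each other, with medians of 0.222 (replicate 1) and -0.815 (replicate 2). Leaving out replicate 1 with WT glia at day 14 gave 0.053 over the days, and leaving out replicate 2 gave 0.345.

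Averaged over the days, the other lists had medians between -0.07 and 0.10, with no member past the adjusted threshold. Median differences were -0.01 or 0.00 for the 14 neurofilament and axonal transport genes, the 15 synapse genes tested and the 17 ALS genes. They were 0.03 for 13 activity-induced genes, -0.02 for 13 axon injury genes and 0.02 for 14 p53 and apoptosis genes. The median of the 15 unfolded protein and integrated stress response genes was 0.07, with 12 higher, and Chac1, a glutathione-degrading enzyme induced by that response, had the smallest p, at 0.26 (0.04 to 0.49). Heat shock (0.01), oxidative stress (0.05), oxidative phosphorylation (-0.04), glycolysis and hypoxia (0.09), cholesterol synthesis (-0.03), TGF-beta signalling (0.07), cell cycle (-0.03) and ribosomal protein (0.03) lists were also close to 0. Markers of other cells were at -0.02 (astrocyte), 0.05 (other spinal neurons), -0.03 (endothelial), 0.00 (pluripotency), -0.02 (neural progenitor), 0.10 (muscle and heart) and -0.06 (endoderm), and no red blood cell gene passed the filter. Single days and pairs lay farther from 0. At day 14 the oxidative stress list had a median of 0.325, with 12 of 13 higher, and pair medians of -0.008 and 0.803. The pluripotency list was at -0.331 at day 14 (pair medians 0.003 and -0.552), and the pan-neuronal list at -0.239 (0.061 and -0.530). In each of these lists the replicate 2 pair had the larger size. Slc2a1, the glucose transporter GLUT1, was higher in all 5 pairs (0.35, 0.07 to 0.64), and so was Id1, a target of BMP signalling (0.36, 0.02 to 0.70). Without the replicate term Slc2a1 was at 0.01, Chac1 at 0.04 and Id1 at 0.25. Of the 33 genes with the smallest p of their list, 10 had an unadjusted p under 0.05, among them Myl7, an atrial myosin light chain (0.41, 0.10 to 0.72), and Igf1r, the receptor for insulin-like growth factor 1 (0.30, 0.05 to 0.55). None of the 33 passed the adjusted threshold, and their estimates ran from -0.83 to 0.41.

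Nefm, the medium neurofilament chain, had 4680 and 1890, 794 and 1140, and 148 and 269 with mutant glia, against 3820, then 1750 and 1150, then 162 and 351 with WT glia, and a mean difference of -0.26 (-0.75 to 0.22). Gria2, the AMPA receptor subunit that limits calcium entry, was lower in all 5 pairs at -0.31 (-0.65 to 0.02). Sprr1a, induced in injured axons, was at -0.37 (-0.78 to 0.04). The glutamate and calcium handling list had a median of -0.07 and the neurotrophic list of 0.06. Sod1 itself had 515 and 163, 163 and 148, and 181 and 206 with mutant glia, against 394, then 234 and 159, then 157 and 151 with WT glia. The groups overlapped, and the difference was 0.11 (-0.16 to 0.38). The labels do not say whether reads of the SOD1_G93A allele count toward this value, so it checks no label.

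Differences restricted to the first or the last day were not called. At day 3 the 1 library with WT glia is assumed to vary like the other groups, and 0 genes passed (limma, smallest adjusted p 0.168) and 219 (1.47%) had an unadjusted p under 0.05. The named genes there were Pla2g7 (-1.17), Rarres2, which encodes the chemoattractant chemerin (-1.45), and Immp1l, a mitochondrial peptidase (-1.26). Rarres2 had 0.978 and 0.0850 with mutant glia at day 3, against 3.93 with WT glia. At day 14, 0 genes passed (smallest adjusted p 0.936) and 492 (3.31%) had an unadjusted p under 0.05. Htr1b, a serotonin receptor, had 0 and 0.531 with mutant glia at day 14, against 2.30 and 1.34 with WT glia (-1.17). S100b, an astrocytic calcium-binding protein, had 0.338 and 0.822, against 2.45 and 5.19 (-1.56), and Ifrd2 had 6.07 and 8.03, against 3.77 and 4.43 (0.65). The day 14 groups did not overlap for these 3 genes, nor for 29.1% of all genes tested.

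No gene's difference changed past the threshold between days. Between days 14 and 3, 0 passed in limma and 159 (1.07%) had an unadjusted p under 0.05, with Pla2g7 (0.93), Psma5, a proteasome subunit (0.96), and Fstl3, a binder of activins (1.20), named. Between days 14 and 7, 0 passed and 914 (6.15%) had an unadjusted p under 0.05, 699 of them toward higher estimates with mutant glia at day 14. All 14 microglia markers had that sign, 7 at that p, against 4.7% of all genes.

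The same glial contrast in mutant neurons (6 libraries with mutant glia, 3 with WT glia) uses other libraries but the same fit. Its WT glia arm has 1 library a day, and the replicate term is estimated partly from the WT neuron libraries, so the 2 contrasts are not independent. No gene's response to mutant glia passed the test of a difference between the 2 neuron genotypes (0 of 14870 in limma, 381, or 2.56%, at an unadjusted p under 0.05). The smallest p values were those of Adrb1, the beta-1 adrenergic receptor (0.39 in WT and -0.36 in mutant neurons), Fam229b (-0.52 and 0.27) and Ephx4, an epoxide hydrolase (-0.33 and 0.31). In mutant neurons the 12 interferon genes had a median of -0.79, all 12 lower, with 10 at an unadjusted p under 0.05, against 0.726% of all genes. Other lists lay nearer 0 there. The 8 cytokines tested had a median of -0.138, with 6 lower, 2 higher and 1 at that p, and ran from -0.944 to 0.188. The 9 antigen presentation genes had a median of -0.175 (9 lower), and the 14 microglia markers of -0.048 (9 lower, 5 higher). No member of these last 2 lists reached that p. Ccl2 was at -0.94 (-1.49 to -0.40) there and Irf7 at -0.83 (-1.32 to -0.33), and neither passed the adjusted threshold (limma, adjusted p = 1.0 for both).

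The neuron libraries held glial transcripts in unequal proportion. Gfap, the intermediate filament of astrocytes, stood at 4.04% of its partner glial level with mutant glia and 5.95% with WT glia. These and the single-gene means below are over all libraries of a group. WT neurons with WT glia have 1 library at day 3 and their partner glia have 2, so days weigh unequally there. The percentages of the 2 groups are therefore not like for like. Agt, angiotensinogen of astrocytes, stood at 3.90% and 5.01%, and Cdh5, the endothelial cadherin, at 2.82% and 2.99%. Rarres2 was at 2.63% and 3.41%. The microglial genes C1qa (20.2% with mutant glia and 33.7% with WT glia) and Cx3cr1 (16.4% and 29.5%) stood higher than these 4. Single genes do not stand for their lists. At day 14 the astrocyte sum was at 55.1 and 42.6% with mutant glia, against 54.0 and 27.5% for the microglia sum. With WT glia it was at 43.4 and 45.3%, against 45.7 and 7.32%. The microglia marker P2ry12 ran from 1.53 to 65.7% over the 11 libraries. Acta2, a smooth muscle actin, stood at 148% and 167%, above its level on the glial side.

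The astrocyte list as a whole came to 9.16 and 7.40, 15.0 and 11.3, and 55.1 and 42.6 percent of the partner glia with mutant glia at days 3, 7 and 14. With WT glia it came to 10.9, then 14.4 and 11.2, then 43.4 and 45.3 percent. The groups overlapped at days 7 and 14, and both were higher at day 14 than at the earlier days. In the glial libraries the defining astrocyte gene Gfap averaged 222 in mutant and 194 in WT glia (n = 6 each). Over the 1191 to 1340 genes at 50 or more in the partner glia, the first percentile stood at 0.466 to 6.12% of the glial level with mutant glia and at 1.87 to 5.84% with WT glia. The median such gene stood at 53.2 to 83.7% and 59.4 to 83.9%.

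**Figure D4:**
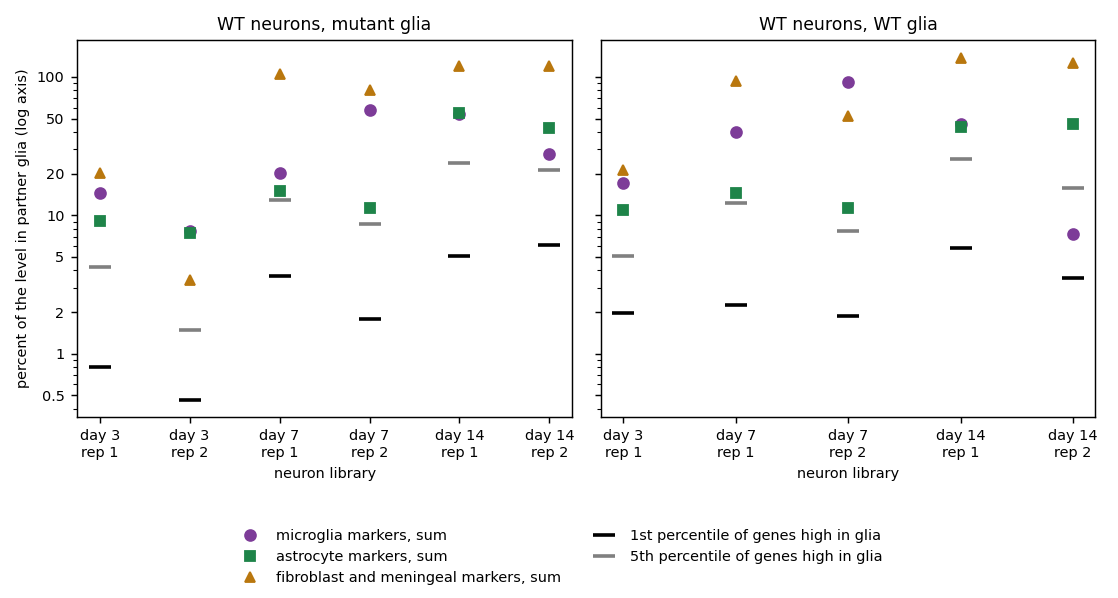
Summed marker level of each neuron library as a percent of the mean of the partner glia of the same day (log axis), with mutant glia left of WT glia. Microglia lie between 7.71 and 57.4% with mutant glia and between 7.32 and 91.4% with WT glia, and astrocyte markers lie between 7.40 and 10.9% at day 3 and between 42.6 and 55.1% at day 14 over both groups.

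Among all genes tested, 46.6% had a higher mean in the partner mutant glia than in the neuron libraries with mutant glia. The share was 74.7% of the genes lower over the days at an unadjusted p under 0.05 (201 of 269), and 47.6% of those higher. Choosing genes low in those neuron libraries itself raises the share, so the difference is a description. At day 7 it was 83.1% of the lower genes (559 of 673). Neurons, any microglia on the neuron side and any RNA carried over from the glial side are read as 1 sample. Which of them holds the lower values at day 7 was not tested.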

How the data were processed

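RNA was read from the neuron or the glial side of mouse sandwich cultures at days 3, 7 and 14. Reads were aligned with Bowtie to mm9, per the submitters' processing notes, and the version is not stated there. The deposited table holds 1 value per gene and library, which the authors had normalized to length and depth. Its unit is not named, and the values behave as RPKM: in all 22784 entries above 0 they are whole multiples of 1 read (tolerance 0.02 reads). Of 27389 entries, 127 have no values. Symbols were assigned to 18851 entries by Entrez ID and to 705 by alias, and 7706 stayed unnamed, while 377 symbols have more than 1 entry, so near-identical copies and overlapping or antisense genes are uncertain.

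Deposited RPKM values were rescaled by median-of-ratios factors, set as log2(value + 1), and fitted with limma 3.58.1 in R 4.3.3 (empirical Bayes with trend). The fit covered 20 neuron libraries, with 12 means (neurons, glia and day), replicate 2 of each day as a block, and 5 residual degrees of freedom. The 14870 genes that reached 1 in 2 of these libraries were tested, with Benjamini-Hochberg adjustment and a threshold of 0.05. The rule that defines this comparison pairs libraries by day and number. As a check of that pairing, same-numbered neuron libraries of 1 day deviated together, with correlations above 0.1 in 6 of 7 distinct pairs of groups (median 0.558, lowest 0.071) and of 0.489 and 0.567 in the 2 pairs of WT neurons. Replicates differed beyond sampling noise in the 8 groups with 2 libraries, and 4 groups have 1.

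Named genes are those past the threshold with a mean of at least 2 in 1 group and 1 sign in all pairs, up to 12 per direction, filled to 24 by smallest p; called genes with that mean, or the 3 with the smallest p, in other contrasts; and the member with the smallest p in each list, the 2 highest of each marker list, and Sod1. The rule covers 85 genes, and the text names part of them. The comparison, gene lists and tests were chosen with earlier results of these data known. Alternatives were other scalings, pseudocounts, filters, sample sets, covariates and a read-level test, and each library left out in turn. The microglia covariate and the fit without the day 14 replicate 2 pair were added after seeing the data.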

Additional observations from a re-analysis of the deposited data

Results flagged for a closer look

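In 3 gene lists both pairs of day 7 had a median on 1 side of 0 and both pairs of day 14 on the other (log2 difference, mutant glia minus WT glia), and this opposite direction was not tested. The antigen presentation list stood at -0.619 and -1.011 at day 7, and at 0.137 and 0.335 at day 14. Oxidative phosphorylation genes stood at -0.122 and -0.082 at day 7, and at 0.036 and 0.126 at day 14. Cell cycle genes stood at 0.086 and 0.282 at day 7, and at -0.030 and -0.231 at day 14. Gene by gene, the test of the difference between days 14 and 7 called 0 of 14870 genes in limma, with 914 at an unadjusted p under 0.05. With at most 2 libraries per group and day, no library was tested for standing apart.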

How the results depend on the processing

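Of 1746 values of the 74 gene results recomputed under an alternative, 1682 kept their direction and side of the threshold, 58 lost and 2 gained the threshold, and 4 reversed. All 58 losses were of the 4 results that passed in the main fit, Acod1, Apoc2, Neurl3 and Clec4a1 at day 7. The other results had not passed there, so the count of kept results does not measure stability. Without the replicate block, day 3 had 1 call (lower), day 7 had 0, list medians were -0.113 (fibroblast), -0.41 (pluripotency), 0.019 (unfolded protein response), -0.055 (glycolysis) and -0.03 (extracellular matrix), and Col1a1 (-0.054), Lamb1 (-0.097) and Sod1 (-0.141) reversed. The cause was not tested for any of these changes. On values as deposited, day 3 had 1 call, day 7 had 0, and the unfolded protein response list was at 0.117. Calls at day 7 were 0 with a pseudocount of 0.1 (endoderm list -0.273), a filter at a mean of 2 (endothelial list -0.263) or astrocyte markers as a covariate (unfolded protein response list 0.095). With a pseudocount of 5, day 7 had 13 calls, the difference between days 14 and 7 had 1, and that between neuron genotypes 1. With no filter on low values, calls were 10 (mean), 26 (day 3), 3 (day 7), 10 (days 14 and 3), 1 (days 14 and 7) and 13 (neuron genotypes). Day 7 had 61 calls in the 11 WT neuron libraries alone, 59 in the 10 paired ones, and 3 (1 higher, 2 lower) by voom on recovered reads, where 3 lists moved, pluripotency to -0.296, endoderm to -0.258 and neurotrophic to 0.004. With microglia markers as a covariate the mean had 1 call and day 7 had 2. Without the day 14 replicate 2 pair, day 7 had 157 calls, the endoderm list was at -0.211 and the unfolded protein response list at 0.006. Leaving out each WT neuron library in turn gave 0 to 91 calls at day 7, 0 to 8 at day 14 (8 without replicate 1 with WT glia at day 14) and 0 to 51 between days 14 and 7 (51 without replicate 2 with mutant glia at day 7, 36 without replicate 1 with WT glia at day 14). List medians then ran from -0.05 to 0.038 (ALS genes), -0.168 to 0.031 (cholesterol synthesis), 0.012 to 0.217 (glycolysis), -0.011 to 0.103 (neurotrophic), -0.083 to 0.071 (other spinal neurons) and 0.002 to 0.134 (unfolded protein response), and Slc32a1 ran from -0.074 (without the day 3 library with WT glia) to 0.41. As a median over markers, fibroblast markers stood at 26.2% of partner glia with mutant glia and 29.5% with WT glia. At least 2 times the neuron level in glia was met by 44.2% of the lower genes, 11.1% of the higher and 14.3% of all genes, a share that choosing genes low in neurons raises. Depth limits low genes: Acod1 had 1 read in the day 14 replicate 2 library of each group.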

Other observations

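The summed level of 4 Y-linked genes (Ddx3y, Eif2s3y, Kdm5d and Uty, chosen after values were seen) varied between libraries of 1 genotype. In WT neurons with mutant glia it was 1.49 and 1.1 at day 3, 4.57 and 6.26 at day 7, and 0.874 and 2.85 at day 14, or 1.66 to 9.06% of the partner glia. In WT neurons with WT glia it was 1.04 at day 3, 2.04 and 0.132 at day 7, and 1.11 and 0.920 at day 14. The partner mutant glia had 42.4 and 24.9, 72.9 and 65.3, and 21.9 and 83.5 at the 3 days, and the WT glia 23.6 and 47.8, 0.164 and 0.0815, and 7.75 and 68.0. The day 7 WT glia thus held almost no Y-linked RNA, while the WT neurons beside them held more in replicate 1 than in replicate 2.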
